A study of Homo sapiens with 6 samples.

Results

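The messenger RNAs of the heat shock proteins, their J-protein partners, the chaperonins and the BAG factors were followed in a ChIRP series on the long noncoding RNA SNHG10. Members were taken by gene symbol alone: HSPA to HSPE and HSPH symbols, DNAJA, DNAJB and DNAJC symbols, CCT2 to CCT8 with TCP1, and BAG1 to BAG6. The rule found 71 genes among the 11593 gene symbols in the files, with 186 of the 28768 transcript rows. In ChIRP, biotin-tagged DNA probes complementary to an RNA are used to draw it out of crosslinked cells together with its partners. The tested libraries (3) came from SK-Hep1 cells and a probe set from RiboBio against SNHG10, and the control libraries (3) from the same line and a Millipore probe set against the bacterial gene LacZ. No genetic change or drug is given for either group, so the probe set and its supplier are what the labels state as different. SK-Hep1 is an established human line labelled as hepatocellular carcinoma and known to carry endothelial features. Nothing in the labels says whether the replicates were separate cultures, so a p-value here reflects scatter among these 6 libraries only, and that scatter may be technical.

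Chaperones bind proteins that are not yet folded or have lost their fold. HSP70 proteins hold and release short stretches of a client in a cycle driven by ATP. J proteins bring clients to HSP70 and start ATP hydrolysis, and nucleotide exchange factors such as several BAG proteins, HSPBP1 and HSP110 reset the cycle. The cytosolic chaperonin, a double ring of TCP1 and CCT subunits, encloses actin, tubulin and other clients, and HSPD1 with its lid HSPE1 does the same in mitochondria. Heat shock factor HSF1 raises many of these genes under stress by binding inverted repeats of nGAAn, and unfolded protein in the endoplasmic reticulum raises HSPA5 through the ER stress response element.

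The promoters of 5 members are shown because they carry these elements or bear on how their transcripts can be told apart. They were copied from RefSeq (GRCh38.p14), which held promoter entries, from 250 bases before to 50 bases after a start, for 64 of the 71 members. Capitals mark the heat shock element of 3 units (GAA, TTC and GAA, each 2 bases apart) in HSPA8 and HSPD1. HSPA8 holds 2 separate matches, and in HSPD1 overlapping matches run together. Capitals also mark the ER stress response element (CCAAT and CCACG, 9 bases apart) in HSPA5. In the near-identical copies HSPA1A and HSPA1B they mark a heat shock element of 2 units, GAANNTTC. Both strands were searched.
HSPA8, chr11:123062087-123062386, minus strand: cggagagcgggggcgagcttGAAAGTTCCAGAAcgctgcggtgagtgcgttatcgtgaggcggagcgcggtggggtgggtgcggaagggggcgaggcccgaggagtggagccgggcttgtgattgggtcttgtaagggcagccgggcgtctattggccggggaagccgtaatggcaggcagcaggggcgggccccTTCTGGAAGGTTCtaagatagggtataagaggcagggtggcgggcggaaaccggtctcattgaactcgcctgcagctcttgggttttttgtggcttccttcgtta
HSPD1, chr2:197499791-197500090, minus strand: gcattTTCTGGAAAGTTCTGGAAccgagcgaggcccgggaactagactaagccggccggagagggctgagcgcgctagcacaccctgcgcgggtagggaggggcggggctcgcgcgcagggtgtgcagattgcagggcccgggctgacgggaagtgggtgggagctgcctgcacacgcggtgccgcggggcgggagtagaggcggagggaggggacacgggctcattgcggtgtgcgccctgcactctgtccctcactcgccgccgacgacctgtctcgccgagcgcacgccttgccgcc
HSPA5, chr9:125241294-125241593, minus strand: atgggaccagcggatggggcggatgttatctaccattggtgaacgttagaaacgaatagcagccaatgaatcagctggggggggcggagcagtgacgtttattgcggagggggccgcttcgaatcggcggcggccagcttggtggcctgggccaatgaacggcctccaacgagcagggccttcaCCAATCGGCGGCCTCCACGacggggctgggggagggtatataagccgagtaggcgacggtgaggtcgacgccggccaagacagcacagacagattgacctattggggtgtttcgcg
HSPA1A, chr6:31815293-31815592, plus strand: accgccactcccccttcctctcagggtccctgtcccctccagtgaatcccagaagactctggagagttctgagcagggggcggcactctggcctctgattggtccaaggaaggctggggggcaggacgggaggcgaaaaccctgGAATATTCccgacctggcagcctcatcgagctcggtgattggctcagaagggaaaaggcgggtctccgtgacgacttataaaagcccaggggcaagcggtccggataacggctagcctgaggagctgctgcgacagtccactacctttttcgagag
HSPA1B, chr6:31827488-31827787, plus strand: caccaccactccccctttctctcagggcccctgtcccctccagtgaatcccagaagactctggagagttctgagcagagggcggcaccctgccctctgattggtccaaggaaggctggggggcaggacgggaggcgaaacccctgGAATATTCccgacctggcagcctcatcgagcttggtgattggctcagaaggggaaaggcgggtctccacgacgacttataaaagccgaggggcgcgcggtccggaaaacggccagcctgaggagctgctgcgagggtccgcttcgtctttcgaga

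The heat shock element of 3 units was in 4 of 86 promoter entries of members (4.65%), those of HSPA8, HSPD1, DNAJB6 and DNAJA1, against 0.490% of all 35116 entries. Its shorter part GAANNTTC, which every longer match also holds, was in 15 of 86 (17.4%) against 6.77%, and the inverse TTCNNGAA in 8 of 86 (9.30%) against 7.74%. The ER element was in 1 of 86, that of HSPA5, against 0.0769%. These counts describe letters in a window and say nothing of factor binding in these libraries. The HSPA1A and HSPA1B windows were 92.0% identical over 301 aligned positions. The HSPD1 window shown belongs to the start at 197499840. HSPD1 has another entry, with its start at 197500274, which lacks the element of 3 units.

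The libraries were alike in scale. FPKM totals, which are relative to each library's own reads, were 268794 to 272909 in the SNHG10 libraries, against 271354 to 277118 in the LacZ libraries, and the read depth is unknown. All 71 members together held 0.842%, 0.810% and 0.793% of the total with SNHG10 probes, against 0.873%, 0.788% and 0.859% with LacZ probes, which overlapped. Some whole-library measures separated the probe sets. Genes listed at 0 numbered 850, 897 and 859 with SNHG10 probes against 842, 797 and 748 with LacZ probes. Genes reaching 1 FPKM numbered 9914, 9862 and 9911 with SNHG10 probes, against 9963, 9998 and 10087 with LacZ probes, and mitochondrially encoded transcripts held 13.98% to 14.05% against 12.8% to 13.4% of the total. The part of any of these in the differences given here was not tested. Of 9 hepatocyte markers, SERPINA1 and CPS1 were listed. Their summed level was 1.04 to 1.72 FPKM with SNHG10 probes, against 1.25 to 2.12 FPKM with LacZ probes, so these 2 were near 0. ALB, APOA1, APOB, TTR, AFP, TF and HNF4A were not listed. Of 5 epithelial markers, the keratins KRT8, KRT18 and KRT19 were listed and summed to 1818 to 2070 FPKM against 2007 to 2116 FPKM. EPCAM and CDH1 were not listed. Of 5 endothelial markers only ENG was listed, at 32.4 to 41.8 FPKM against 30.7 to 41.8 FPKM. PECAM1, CDH5, KDR and VWF were not listed. The mesenchymal markers VIM, FN1 and COL1A1, all listed, summed to 987 to 1305 FPKM against 1058 to 1641 FPKM. Of 3 leukocyte markers, CD14 and CD68 were listed and summed to 36.8 to 56.1 FPKM against 43.1 to 56.5 FPKM. PTPRC was not listed.

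No chaperone mRNA passed the test in either direction. Among the 71 members, 63 had at least 1 FPKM in at least 3 libraries and entered the limma fit with 10304 genes, and 0 of these 63 had an adjusted p under 0.05, with a smallest value of 0.885. The background in the same comparison was 0 of 10304 genes (0%). At an unadjusted p under 0.05 there were 4 members of 63, 1 higher and 3 lower, against 5.42% of all genes tested (2.1% higher, 3.32% lower). Under 0.01 there were 0 members, against 1.1% of all genes. Libraries of one probe set lay wholly above or below the other in 9 members, BAG3 above and 8 below, against 11.4% of all genes (4.22% above, 7.21% below). Both shares were near the background. All differences below are log2(FPKM + 1), SNHG10 probes minus LacZ probes, with the SE of the limma fit, and understate changes of low genes.

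The balance of signs leaned to lower values with SNHG10 probes. A negative difference was found in 44 members and a positive one in 19, so 69.8% were negative against 56.7% of all genes tested, and the median difference was -0.13 against -0.05. With median-ratio scaling between libraries the split was 40 negative and 23 positive, or 63.5% against 50.3%, with medians of -0.08 and -0.00267. Among the 23 members with a mean of at least 20 FPKM, a cut made after the values were seen, 13 were negative and 10 positive, with a median of -0.03. By class, DNAJC genes held 15 of 19 negative and a median of -0.21, while HSP70 genes held 6 of 10 negative and a median of -0.06. Classes were set by gene symbol, so HSP70 here takes in HSPA4 and HSPA4L. Signs within a class are a description and were not tested.

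**Figure D1:**
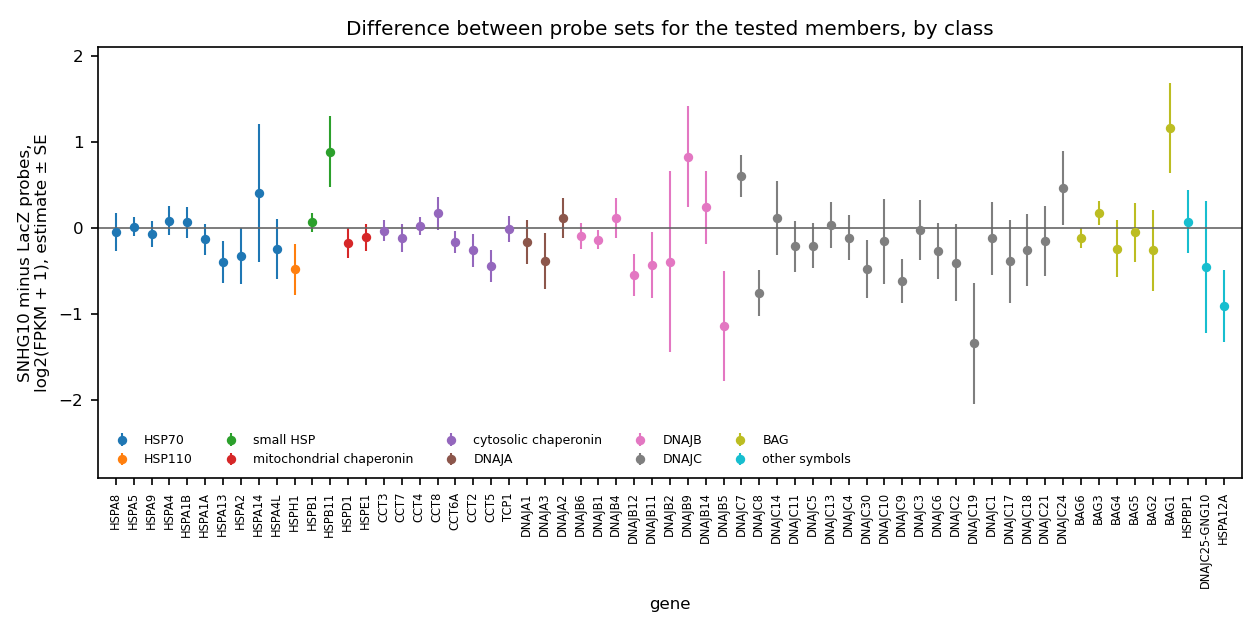
Difference between SNHG10 and LacZ probes in log2(FPKM + 1) (vertical axis) for the 63 tested members (horizontal axis), ordered by class and, within a class, by mean level; points are limma estimates and bars their SE, from 3 libraries per probe set. The most abundant HSP70 and cytosolic chaperonin genes, such as HSPA8 and CCT3, lie close to 0, DNAJC7 (0.60) and DNAJC8 (-0.76) lie further out, and DNAJB2 and HSPA14, listed at 0 in a library, have wide bars.

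The HSP70 class was led by HSPA8, the constitutive cytosolic HSP70. Its gene lies on the minus strand of chromosome 11 (122928197 to 122933938, hg19). HSPA8 libraries stood at 292, 276 and 186 FPKM with SNHG10 probes, against 332, 212 and 237 FPKM with LacZ probes. The values overlapped and spread widely within each probe set, and the difference was -0.05 ± 0.22 (limma adjusted p = 0.982). HSPA5, the HSP70 of the endoplasmic reticulum, whose promoter holds the ER element above, read 140, 116 and 135 FPKM against 129.3, 129.2 and 127 FPKM. The LacZ libraries were nearly equal and lay inside the range of the SNHG10 libraries, with a difference of 0.01 ± 0.12 (adjusted p = 0.992 by limma). HSPA9, the mitochondrial HSP70, read 67.1, 89.3 and 79.6 FPKM with SNHG10 probes, against 86.1, 87.2 and 74.1 FPKM with LacZ probes, which overlapped.

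HSPA1A and HSPA1B, the stress-inducible HSP70 copies on chromosome 6, stood well below HSPA8 in FPKM. HSPA1A (31783241 to 31785723, hg19) averaged 17.0 FPKM with SNHG10 probes, against 18.8 FPKM with LacZ probes. HSPA1B (31795512 to 31798032) averaged 22.4 and 21.4 FPKM. Reads may be split between these copies, so their sum is the safer value: 40.6, 39.5 and 38.0 FPKM with SNHG10 probes against 38.4, 44.2 and 37.9 FPKM with LacZ probes. The sums overlapped (39.4 ± 1.29 against 40.2 ± 3.49 FPKM, SD, n = 3 each; two-sided exact permutation p = 0.9, where 0.1 is the smallest this design allows). HSPA1A held 39.3% to 45.5% of the sum with SNHG10 probes and 46.2% to 47.4% with LacZ probes, which did not overlap. How reads shared by the copies were assigned is not given in the sources used here, and its part in this division was not tested. HSPA1L beside them, known for expression in testis, was listed at 0 in all SNHG10 libraries and read 2.24, 0 and 0.565 FPKM with LacZ probes, under the filter.

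The other HSP70 genes were lower in level. HSPA13, a microsomal relative of HSP70, read 7.35, 6.22 and 8.45 FPKM with SNHG10 probes, against 10.9, 8.90 and 9.96 FPKM with LacZ probes. All its SNHG10 libraries lay below the LacZ libraries, but the difference of -0.39 ± 0.24 missed the threshold (limma adjusted p = 0.928). HSPA14, which works with DNAJC2 at the ribosome, read 2.38, 4.07 and 6.496 FPKM against 4.76, 0 and 8.55 FPKM, so it was listed at 0 in 1 library. HSPA4, a nucleotide exchange factor of the HSP110 type, averaged 26.5 ± 2.43 FPKM with SNHG10 probes, against 24.9 ± 1.67 FPKM with LacZ probes (SD, n = 3 each). HSPA2 averaged 5.91 FPKM with SNHG10 probes, against 7.64 FPKM with LacZ probes, and HSPA4L 1.12 and 1.48 FPKM, with overlapping libraries for both.

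HSPH1, the HSP110 exchange factor of the cytosol, read 5.89, 4.39 and 5.06 FPKM with SNHG10 probes, against 5.88, 6.96 and 10.2 FPKM with LacZ probes. One LacZ library fell just under the highest SNHG10 library, so the sets touched, and the difference was -0.48 ± 0.30 (adjusted p = 0.928 by limma), or -0.28 without LacZ replicate 3. HSPB1, the small heat shock protein HSP27, was the second most abundant member, with 186, 207 and 190 FPKM against 205, 171 and 182 FPKM. The libraries overlapped and the difference was 0.06 ± 0.11 (adjusted p = 0.954 by limma). HSPB11 shares only the symbol with that family: it is a subunit of the intraflagellar transport complex. It read 17.7, 14.1 and 15.3 FPKM with SNHG10 probes against 15.6, 4.14 and 7.59 FPKM with LacZ probes, with 1 LacZ library inside the SNHG10 range. Its difference was 0.88 ± 0.41 (adjusted p = 0.885 by limma), or 0.48 without LacZ replicate 2.

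**Figure D2:**
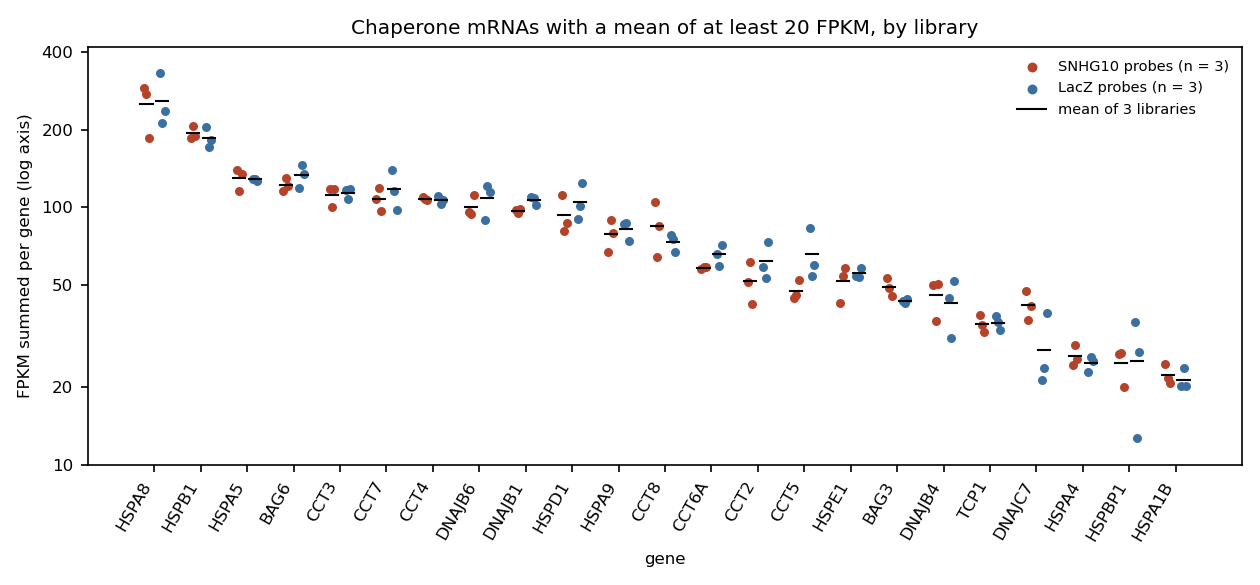
FPKM summed per gene (vertical log axis) for the 23 members with a mean of at least 20 FPKM (horizontal axis), by library: SNHG10 probes on the left and LacZ probes on the right of each gene, points for single libraries and black lines for means of 3. CCT4 and DNAJB1 have tight points, HSPA8 and HSPBP1 spread widely, and DNAJC7 is the gene whose SNHG10 mean stands highest above its LacZ mean.

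The 8 subunit mRNAs of the cytosolic chaperonin spanned a several-fold range of levels in each library. Over all 6 libraries the FPKM levels, which are per transcript length, averaged 113.0 ± 7.40 for CCT3, 113 ± 16.1 for CCT7 and 108 ± 2.66 for CCT4 (SD, n = 6). CCT8 followed at 79.0 ± 14.6, CCT6A at 61.9 ± 5.64, CCT2 at 56.6 ± 10.6 and CCT5 at 56.6 ± 14.3 FPKM. TCP1, the founding subunit, was lowest at 35.4 ± 2.24 FPKM. Each neighbour in this order overlapped the next in range except CCT5 and TCP1. TCP1 was the lowest subunit in each of the 6 libraries, and the highest subunit, CCT3 or CCT7, exceeded it 3.08-fold to 3.60-fold with SNHG10 probes and 3.25-fold to 3.72-fold with LacZ probes.

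Between probe sets, 6 of the 8 subunits had a negative and 2 a positive difference, and no subunit passed. Median-ratio scaling made this 4 and 4. CCT5 read 44.3, 45.7 and 52.1 FPKM with SNHG10 probes, against 83.3, 54.0 and 59.9 FPKM with LacZ probes. All SNHG10 libraries were below the LacZ libraries, and LacZ replicate 1 stood above the rest. Its difference was -0.44 ± 0.19 (limma adjusted p = 0.885), and -0.26 without LacZ replicate 1. That library also divided CCT5 differently: CCT5-201 read 17.5 FPKM and CCT5-214 51.2 FPKM there, whereas CCT5-201 read 44.3 to 58.9 FPKM and CCT5-214 0 to 1.03 FPKM in the other libraries. CCT6A read 57.7, 58.6 and 58.4 FPKM against 66.0, 59.1 and 71.6 FPKM, again with no overlap, and a difference of -0.16 ± 0.13, or -0.10 without LacZ replicate 3. CCT2 read 51.4, 61.2 and 42.0 FPKM against 58.4, 53.3 and 73.3 FPKM, which overlapped.

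The remaining subunits gave no separation. CCT3 read 118, 100.4 and 117 FPKM with SNHG10 probes, against 117, 107 and 118 FPKM with LacZ probes, with a difference of -0.03 that became 0.03 with median-ratio scaling. CCT4 read 109.6, 108 and 107 FPKM against 111, 103 and 107 FPKM, the smallest spread within a probe set of all tested members (SD 0.04 on the log2 scale). CCT7 read 108, 119 and 97.1 FPKM against 140.0, 116 and 97.2 FPKM. CCT8 read 104, 63.9 and 84.7 FPKM against 78.3, 75.5 and 67.0 FPKM, and TCP1 38.2, 35.0 and 32.6 FPKM against 37.7, 35.7 and 33.4 FPKM. The whole chaperonin held 0.217% to 0.235% of the FPKM total with SNHG10 probes and 0.218% to 0.252% with LacZ probes.

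Of the mitochondrial pair, HSPD1 read 111, 80.7 and 86.8 FPKM with SNHG10 probes, against 90.4, 101 and 124 FPKM with LacZ probes. HSPE1 read 42.6, 53.9 and 58.2 FPKM against 54.3, 53.5 and 58.2 FPKM. Both overlapped, with differences of -0.18 ± 0.17 and -0.11 ± 0.16. With 1 library left out the HSPD1 difference ran from -0.31 (without SNHG10 replicate 1) to -0.05 (without LacZ replicate 3). The readthrough HSPE1-MOB4 added 0 to 2.16 FPKM in a library, and with it the HSPE1 sum was 52.0 ± 8.29 against 56.1 ± 2.35 FPKM (SD, n = 3 each; exact permutation p = 0.7). These genes stand head to head on chromosome 2, and in RefSeq their nearest annotated starts lie 105 bases apart on opposite strands. The HSPD1 start of the promoter shown above is the other one, 539 bases from the HSPE1 start.

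Single transcripts of the pair lay further apart than the sums did. HSPE1-201, on the plus strand of chromosome 2 (198364718 to 198368181, hg19), had 34.5, 38.2 and 20.2 FPKM in the SNHG10 libraries, against 10.1, 17.2 and 12.5 FPKM in the LacZ libraries. All SNHG10 libraries were above the LacZ libraries, and the row missed the threshold among 16618 transcript rows (difference 1.14 ± 0.32, limma adjusted p = 0.543). HSPE1-202, which starts further in at 198365103, read 8.10, 15.7 and 37.9 FPKM against 44.2, 36.3 and 45.7 FPKM (-1.25 ± 0.51, adjusted p = 0.879 by limma), and the difference was -0.75 without SNHG10 replicate 1. It thus held 19.0%, 29.1% and 65.2% of HSPE1 with SNHG10 probes, against 81.3%, 67.9% and 78.5% with LacZ probes. HSPD1-202 (198351305 to 198364771, minus strand), whose 5′ end overlaps that of HSPE1-201 on the other strand, read 64.4, 77.0 and 35.3 FPKM against 84.8, 99.6 and 97.3 FPKM, all below (-0.73 ± 0.29, adjusted p = 0.859 by limma). Use of strand in the counting is not given in the sources used here, so reads in the shared stretch cannot be told apart. Other HSPD1 rows also varied between libraries. HSPD1-209 read 42.1, 0 and 4.53 FPKM with SNHG10 probes, against 0, 0 and 21.8 FPKM with LacZ probes. HSPD1-201 read 38.1 FPKM in SNHG10 replicate 3 and was listed at 0 in every other library. The part of this division in the HSPD1-202 difference was not tested. The HSPE1 and HSPD1 rows were chosen for this description after their values were seen.

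Of 119 member transcript rows tested, 0 passed the adjusted threshold, against 0.0903% of all 16618 rows (0.0481% higher, 0.0421% lower). At an unadjusted p under 0.05 there were 13 (4 higher, 9 lower), against 5.66% of all rows (2.59% higher, 3.06% lower), and 18 rows had separated libraries (5 above, 13 below), against 10.5% (4.48% above, 6.06% below). Rows of 1 gene share reads, so these counts are not of independent rows. Below 0.01 there were 2 rows, against 1.95%. HSPB1-202 lies on chromosome 7 (75932894 to 75933612, hg19), with 4.51, 9.57 and 7.82 FPKM in the SNHG10 libraries and a listed 0 in each LacZ library. This row lies inside the span of HSPB1-201 and shares its end, and HSPB1-201 read 182 to 198 FPKM against 171 to 205 FPKM. The adjusted p of HSPB1-202 by limma was 0.109, and over the alternatives it ran from 0.0437, in limma without trend, to 0.723.

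HSPA8-224, at 122928197 to 122933043 on chromosome 11, had 1.17, 3.85 and 1.57 FPKM in the SNHG10 libraries, against 12.4, 13.7 and 34.3 FPKM in the LacZ libraries. Every SNHG10 library was below every LacZ library, and the difference was -2.67 ± 0.53 with an adjusted p of 0.236 by limma (0.211 to 0.758 over the alternatives). It was one of 16 listed HSPA8 transcripts. HSPA8-202, listed over the same span, read 13.4, 17.3 and 21.2 FPKM with SNHG10 probes, against 0, 31.3 and 0 FPKM with LacZ probes. Its libraries overlapped, and the division of reads between HSPA8-224 and HSPA8-202 was not tested. HSPA8-212, which ends short of the gene's 3′ end, read 156, 138 and 44.2 FPKM against 169, 38.1 and 55.2 FPKM, with 1 low SNHG10 library and 2 low LacZ libraries. HSPA8-222 read 94.7, 73.5 and 86.5 FPKM against 105, 102 and 109 FPKM, below in each library, with a difference of -0.32 ± 0.13. HSPA8-213 lay the other way, at 1.27, 6.82 and 3.51 FPKM against 0, 1.14 and 0.376 FPKM, above in each library (1.59 ± 0.60, adjusted p = 0.842 by limma). These last 3 rows and HSPA8-202 were chosen after their values were seen.

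**Figure D3:**
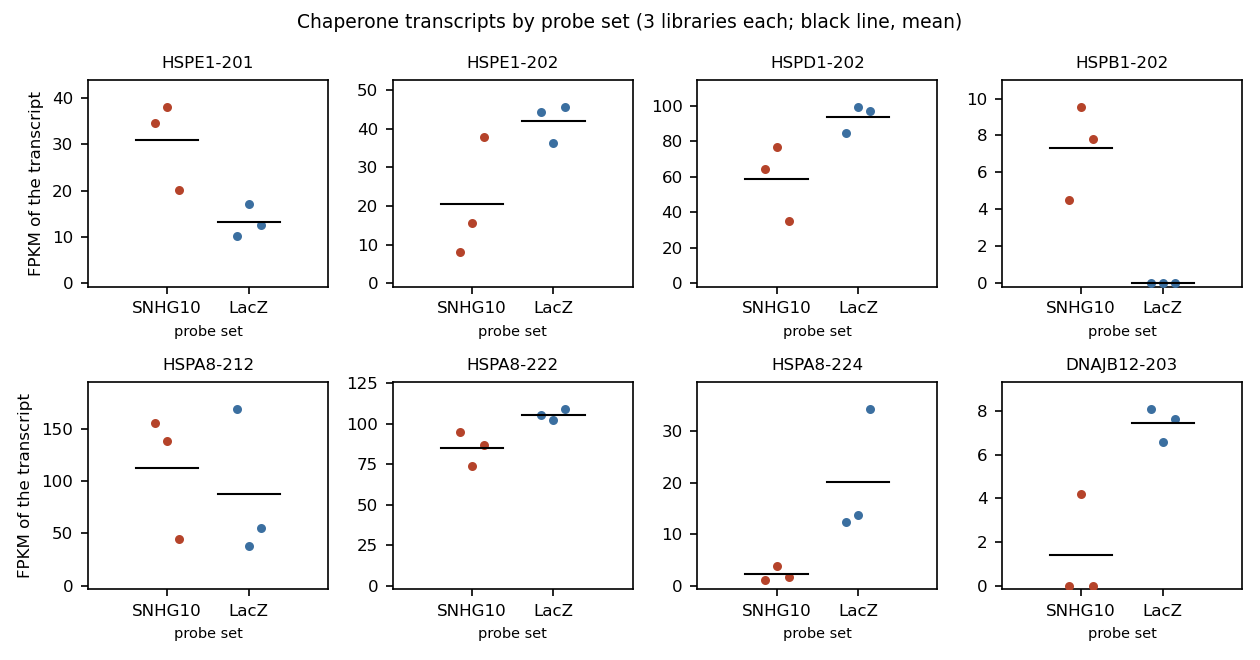
FPKM of 8 transcripts of HSPE1, HSPD1, HSPB1, HSPA8 and DNAJB12 (vertical axes, each with its own scale from 0) with SNHG10 probes on the left and LacZ probes on the right; points are libraries and black lines means of 3. HSPE1-201 and HSPB1-202 lie higher, and HSPD1-202, HSPA8-222, HSPA8-224 and DNAJB12-203 lower, in every SNHG10 library, while HSPE1-202 and HSPA8-212 overlap.

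The division of a gene among its transcripts varied between libraries, for members as for other genes. Of the 38 tested members with at least 2 listed transcripts, 11 had the same leading transcript in all 6 libraries (28.9%), against 27.5% of 6879 such genes. In 30 of the 38 the leading transcript varied more between libraries of a probe set than the gene sum did (78.9%, against 68.1% of all such genes). DNAJB6-209 gave an extreme case, at 57.8 FPKM in LacZ replicate 2 and listed at 0 in the other 5 libraries, while DNAJB6-201 read 26.0 FPKM in that library and 51.0 to 79.1 FPKM elsewhere. CCT7-201 read 83.8, 44.3 and 73.4 FPKM with SNHG10 probes, against 140.0, 101 and 89.1 FPKM with LacZ probes, and CCT7-215 0.216, 74.2 and 20.05 FPKM against 0, 14.7 and 3.92 FPKM. The first was lower in each SNHG10 library, and the CCT7 sum overlapped. These examples were chosen after their values were seen.

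Among J proteins, DNAJA and DNAJB genes mostly serve HSP70 in the cytosol. DNAJB1, the main stress-linked partner of HSP70, read 97.4, 94.9 and 98.8 FPKM with SNHG10 probes, against 109.3, 108.8 and 102 FPKM with LacZ probes. The probe sets did not overlap, but the shift was small, -0.14 ± 0.11 (limma adjusted p = 0.928). DNAJB6, a suppressor of protein aggregation whose promoter holds the heat shock element, read 95.9, 94.6 and 112 FPKM against 89.4, 121 and 114 FPKM. DNAJB4 averaged 45.5 and 42.3 FPKM. The sets overlapped in both genes. DNAJB12, anchored in the endoplasmic reticulum membrane, read 6.74, 6.45 and 9.37 FPKM against 11.15, 11.4 and 11.3 FPKM, without overlap, at -0.54 ± 0.24 (adjusted p = 0.885 by limma). Its transcript DNAJB12-203 read 0, 4.21 and 0 FPKM against 8.11, 6.57 and 7.66 FPKM (adjusted p = 0.694 by limma). DNAJB12-201 leaned the other way, at 5.12, 0.607 and 7.64 FPKM against 0.440, 0.828 and 1.13 FPKM, and overlapped. These DNAJB12 rows were chosen after their values were seen.

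The DNAJA genes overlapped between probe sets. DNAJA1, which also has the heat shock element, read 25.2, 13.6 and 16.02 FPKM with SNHG10 probes, against 18.3, 22.6 and 19.0 FPKM with LacZ probes. DNAJA3, the mitochondrial form, read 10.1, 15.4 and 21.1 FPKM against 23.1, 13.7 and 24.1 FPKM. DNAJA2 averaged 13.0 and 12.1 FPKM, and DNAJA4 stayed under the filter at 0 to 1.59 FPKM. DNAJB2, enriched in neurons, was the least steady member, with an SD of 1.72 within a probe set on the log2 scale. It read 0, 6.205 and 8.06 FPKM against 0.707, 3.88 and 16.8 FPKM, and no direction can be read from it.

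DNAJC genes share little beyond the J domain. Of the 19 tested, 3 had an unadjusted p under 0.05 by limma (1 higher, 2 lower), against 5.42% of all genes (2.1% higher, 3.32% lower). The only other member under this threshold was CCT5, and counts by class were not tested. DNAJC8, bound to the spliceosome, read 8.11, 16.1 and 11.2 FPKM with SNHG10 probes, against 20.2, 21.4 and 18.4 FPKM with LacZ probes. DNAJC9, a chaperone of histones H3 and H4, read 5.03, 5.32 and 4.34 FPKM against 7.77, 8.92 and 7.49 FPKM. Both lay below the LacZ libraries throughout, at -0.76 ± 0.27 and -0.62 ± 0.26, with a limma adjusted p of 0.885 each. DNAJC7, which binds HSP70 and HSP90 through tetratricopeptide repeats, leaned the other way with 47.3, 36.4 and 41.3 FPKM against 21.4, 23.7 and 38.7 FPKM. LacZ replicate 3 lay inside the SNHG10 range, and the difference of 0.60 ± 0.25 had an adjusted p of 0.885 by limma. Under leave-one-out it ranged from 0.44 without LacZ replicate 1 to 0.85 without LacZ replicate 3.

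The other DNAJC genes were low and overlapped. DNAJC19, a part of the mitochondrial import motor, read 5.18, 0 and 4.198 FPKM with SNHG10 probes, against 4.25, 10.1 and 7.91 FPKM with LacZ probes, with 1 library listed at 0. DNAJC3 and DNAJC10 of the endoplasmic reticulum averaged 6.15 and 6.40 FPKM with SNHG10 probes against 6.13 and 6.72 FPKM with LacZ probes. DNAJB11 of the same compartment averaged 5.88 and 8.04 FPKM, and DNAJB9 read 3.69, 3.40 and 1.42 FPKM against 1.07, 0 and 3.32 FPKM. None of these 4 separated the probe sets. The highest mean over 6 libraries of the rest was 15.4 FPKM for DNAJC14. DNAJC25 and its readthrough DNAJC25-GNG10 share a first stretch, and their sum was 6.17, 0 and 5.76 FPKM against 5.18, 1.36 and 6.29 FPKM (exact permutation p = 0.8). The readthrough itself read 6.17, 0 and 3.80 FPKM against 5.18, 1.36 and 5.08 FPKM. DNAJC16, DNAJC22, DNAJC25 and DNAJC27 stayed under the filter. The members not named singly are DNAJB5, DNAJB14 and the other DNAJC genes, all with overlapping libraries.

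Among the BAG genes and HSPBP1, BAG6, which guards tail-anchored membrane proteins, read 116, 130.1 and 121 FPKM with SNHG10 probes, against 119, 146 and 135 FPKM with LacZ probes. Its libraries overlapped (-0.12 ± 0.12). BAG3, which links HSP70 clients to autophagy, read 53.0, 48.5 and 45.4 FPKM against 43.1, 42.5 and 44.0 FPKM. BAG3 was the sole tested member with every SNHG10 library above every LacZ library, by 0.18 ± 0.14 (limma adjusted p = 0.928). HSPBP1 read 27.0, 27.2 and 20.05 FPKM against 35.8, 12.6 and 27.5 FPKM, and the LacZ libraries spanned the SNHG10 values. BAG1 read 2.34, 1.14 and 3.25 FPKM against 1.75, 0 and 0 FPKM. BAG2, BAG4 and BAG5 averaged 2.00, 8.63 and 4.56 FPKM against 2.26, 10.7 and 4.57 FPKM and overlapped.

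HSPA12A, a distant relative of HSP70, read 2.40, 0.563 and 2.37 FPKM with SNHG10 probes, against 4.83, 4.29 and 2.83 FPKM with LacZ probes. The probe sets separated at a level of a few FPKM, at -0.91 ± 0.42 (adjusted p = 0.885 by limma), and at -0.54 without SNHG10 replicate 2. Its transcript HSPA12A-205 averaged 1.70 and 1.66 FPKM and overlapped. HSPA12A-203, under the filter, was listed at 0 in each SNHG10 library, against 2.12, 2.35 and 0.738 FPKM with LacZ probes. These HSPA12A rows were chosen after their values were seen. HSPBAP1, a binding partner of HSPB1, was listed at 0 in 5 libraries and read 2.26 FPKM in SNHG10 replicate 2, under the filter. In all, 14 members were listed at 0 in at least 1 library. A listed 0 can be a failed estimate and was not read as absence.

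How widely a member varied followed its level. The median SD within a probe set on the log2 scale was 0.52 for the 15 tested members under 5 FPKM and 0.36 for 25 from 5 to 20 FPKM. It was 0.20 for 14 from 20 to 100 FPKM and 0.11 for 9 at 100 FPKM or more. The medians of all genes in the same ranges were 0.53, 0.40, 0.25 and 0.15. DNAJB1, at an SD of 0.04, and HSPA8, at 0.35, mark how far abundant members differed from each other.

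**Figure D4:**
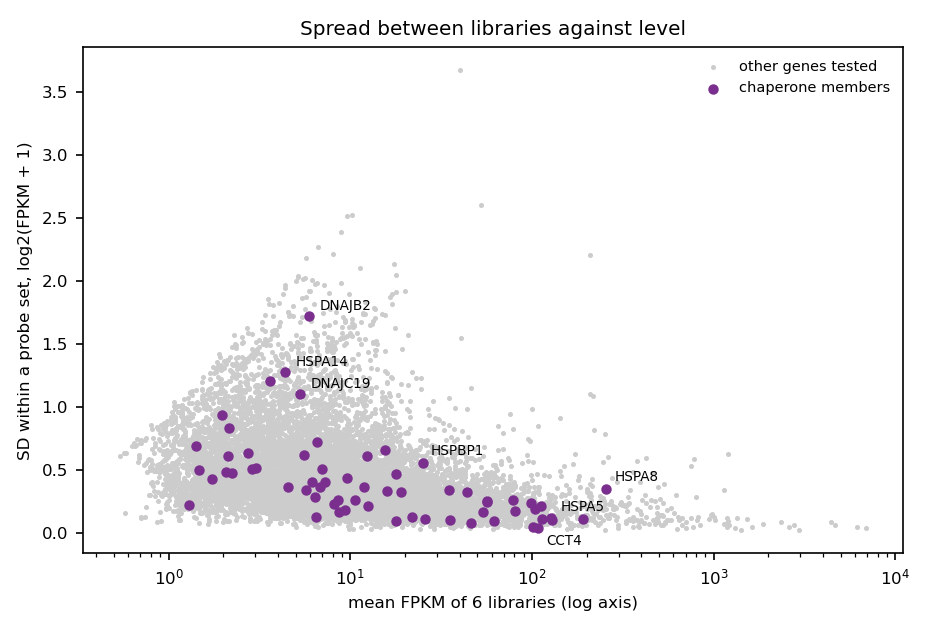
SD within a probe set of log2(FPKM + 1) (vertical axis) against the mean FPKM of 6 libraries (horizontal log axis) for the 63 tested members (purple) and the other genes tested (grey). Members of at least 100 FPKM lie between 0.04 and 0.35, and DNAJB2, HSPA14 and DNAJC19, each listed at 0 in a library, stand high.

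The wider chaperone network outside the symbol rule was read from a list of 45 genes, of which 44 were listed and all 44 tested. None passed in either direction, 26 had a positive and 18 a negative difference, where 56.7% of all genes tested were negative, and the median was 0.03 against -0.05. With median-ratio scaling 28 were positive and 16 negative, where 50.3% of all genes were negative. HSP90AB1, the constitutive cytosolic HSP90, was the most abundant at 457, 513 and 473 FPKM with SNHG10 probes, against 483, 457 and 478 FPKM with LacZ probes. The inducible HSP90AA1 read 99.4, 91.7 and 168 FPKM against 179, 104 and 106 FPKM, with 1 high library in each set. PTGES3, the HSP90 co-chaperone p23, read 109, 134 and 121 FPKM against 150.1, 154 and 110.1 FPKM. All 3 overlapped.

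At an unadjusted p under 0.05 there were 4 of 44 genes of this list, 1 higher and 3 lower, against 5.42% of all genes tested (2.1% higher, 3.32% lower). CANX, the lectin chaperone calnexin of the endoplasmic reticulum, read 104, 77.4 and 77.2 FPKM with SNHG10 probes, against 137, 126 and 112 FPKM with LacZ probes. It was lower in every library, at -0.54 ± 0.16 (limma adjusted p = 0.875), while its soluble homologue CALR read 276, 186 and 212 FPKM against 229, 227 and 202 FPKM and overlapped. CLPP, the mitochondrial protease, read 15.8, 9.57 and 13.1 FPKM against 26.7, 20.2 and 18.8 FPKM, also lower in every library. SUGT1, an HSP90 co-chaperone, read 0, 10.2 and 1.96 FPKM against 9.36, 24.9 and 15.7 FPKM, with 1 SNHG10 library above the lowest LacZ library. DNLZ, the escort of HSPA9, was the higher gene of the 4, with 14.1, 7.64 and 4.86 FPKM in the SNHG10 libraries, against 0, 0.815 and 0 FPKM in the LacZ libraries (2.91 ± 0.46, adjusted p = 0.415 by limma). HSPA9 itself overlapped between probe sets, as given above.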

How the data were processed

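The authors deposited FPKM per transcript, per the file headers, for protein-coding rows. Reads were aligned with Bowtie2 2.1.0 to hg19, per the submitters' processing notes, and the program that estimated FPKM is not given in the sources used here. Whether total RNA or retrieved RNA was sequenced is not settled, since the protocol names the first and the design text a pull-down. Rows were summed per gene symbol with pandas 2.3.3. The filter kept genes or rows reaching 1 FPKM in 3 or more libraries. Values on the log2(FPKM + 1) scale went into limma 3.58.1 (R 4.3.3; lmFit, eBayes with trend), and p-values were adjusted by Benjamini and Hochberg's method over everything tested, at 0.05. The fit was tested on simulated data. For sums of copies an exact permutation test, two-sided, ran over 20 assignments. Promoters were read from RefSeq. The members, lists and tests were chosen with earlier results of these data known. Values in every library are given for the 2 most abundant members of each class, all chaperonin subunits, members with separated libraries or an unadjusted p under 0.05, members at 0 in 1 library and at least 5 FPKM in another, rows under 0.01, and in the wider list the 4 most abundant and those under 0.05. FPKM carry no depth, so no counting interval is given. Tried besides were leave-one-out, the replicate number as a block, 2 scalings, 2 pseudocounts, 2 filters, robust eBayes and limma without trend.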

Additional observations from a re-analysis of the deposited data

How the results depend on the processing

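No member gene was called, higher or lower, under any alternative, and the smallest limma adjusted p of a member was 0.842. With the replicate number as a block, 0 genes and 0 transcript rows were called, and the smallest adjusted p was 0.886 for member genes and 0.723 for member rows. Pairing by number was weak: deviations from the group means correlated at 0.0151, 0.0121 and 0.0161 within a number, under 0.1, although each sample correlated best with its own number. Over leave-one-out runs 0 to 1 genes of all tested were higher (1 without LacZ replicate 2) and 0 to 1 lower (1 without SNHG10 replicate 1), none of them a member. All transcript rows gave 8 higher and 7 lower. They gave 0 and 0 in every leave-one-out run, 3 and 3 with no filter or at least 5 FPKM, 3 and 2 with a pseudocount of 0.1 or 5, and 26 and 27 without trend. The last held 1 member row, HSPB1-202 (3.00, adjusted p = 0.0437). Differences in class shares crossed 0 with a library left out for HSP70 (-0.0117 to 0.0107%), BAG (-0.00418 to 0.00121%), DNAJC (-0.00620 to 0.000262%) and other symbols (-0.00374 to 0.00170%). Signs near 0 turned: with median-ratio scaling CCT3 was 0.0276, HSPA8 0.00959 and TCP1 0.0447, and with quantile normalization CCT3 was 0.0141 and TCP1 0.0244. Over leave-one-out runs ranges crossed 0 as follows. The log2 differences ran from -0.0759 to 0.0427 for CCT3, -0.00922 to 0.0416 for CCT4, -0.244 to 0.0165 for CCT7, -0.406 to 0.0140 for DNAJA1, -1.21 to 0.609 for DNAJB2, -1.02 to 0.396 for DNAJC25-GNG10, -0.557 to 1.07 for HSPA14, -0.0403 to 0.0975 for HSPA5, -0.184 to 0.153 for HSPA8, -0.344 to 0.373 for HSPBP1, -0.203 to 0.0171 for HSPE1 and -0.0716 to 0.0391 for TCP1. The difference in summed FPKM ran from -1.91 to 1.25 for HSPA1A with HSPA1B and from -1.76 to 1.69 for DNAJC25 with its readthrough. Without crossing 0, other member differences moved by over 1.5 times: BAG6 from -0.197 to -0.0517, CCT2 from -0.390 to -0.123, CCT8 from 0.00328 to 0.353, DNAJA3 from -0.631 to -0.126, DNAJB6 to -0.00974 without LacZ replicate 2, DNAJC19 to -0.505 without SNHG10 replicate 2 and HSPB1 to 0.00719 without LacZ replicate 2. The causes were not tested. With no depth in FPKM, how firmly low values are known cannot be stated.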
